A study of Mus musculus with 25 samples.

Results

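Lin- lung cells of Fas-/- mice at 6 weeks after bleomycin were compared with Lin- lung cells of naive mice by bulk RNA-seq. The comparison used 8 of the 20 bulk libraries, out of 25 libraries in the study. These were the 4 libraries titled Week6 FasDel, replicates 1 to 4, and the 4 titled Control, replicates 1 to 4. Lin- cells are dispersed lung cells sorted as negative for CD45 (leukocytes), CD31 (endothelium) and CD326 (epithelium), and are mostly fibroblasts and other mesenchymal cells. Every mouse carried Col1-CreERT2;Fas fl/fl, that is, a tamoxifen-inducible Cre recombinase under the Col1a1 promoter together with floxed Fas alleles. Fas-/- mice had received intratracheal bleomycin, which injures the lung and causes fibrosis, and then intraperitoneal tamoxifen, which starts the deletion. Naive mice had the same genotype, and neither bleomycin nor tamoxifen is stated for them. Bleomycin, tamoxifen, deletion and time therefore form 1 factor in this comparison and cannot be told apart. The Fas+/+ mice whose values stand beside these results had the same genotype and bleomycin, with corn oil in place of tamoxifen, so tamoxifen and deletion cannot be told apart between them either. Cre under the Col1a1 promoter is aimed at collagen-producing cells and need not act in every Lin- cell. In the study's single-cell data fewer Fas-/- than Fas+/+ cells expressed the floxed exon, though some still did. The study states that this loss was alike across its clusters. The age and sex of the mice are not given in the sources used here. The labels do not say that replicates were separate animals, though the study's methods define n as animals. The p-values of the fits measure the spread between samples as estimated over all 20 bulk libraries of 5 groups, not over the 8 compared alone.

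Fas is a death receptor of the TNF receptor family. Its ligand assembles a complex at the receptor that activates caspase-8 and the extrinsic pathway of apoptosis, and fibroblasts can resist this signal during fibrosis. After a single bleomycin injury, mouse lungs usually form scar and later clear it, with loss of the fibroblasts that made it. Profibrotic fibroblasts produce collagens and matricellular proteins such as Cthrc1 and tenascin C. The lung also holds lipofibroblasts next to alveoli, adventitial fibroblasts around vessels and airways, and smooth muscle. The question of the comparison was which genes were still at other levels than in naive lung at 6 weeks after a Fas deletion aimed at Col1a1-expressing cells.

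Total counts ran from 20995314 to 25189096 in the naive and from 17655597 to 20622976 in the Fas-/- libraries. Levels are given as CPM, counts divided by the library size after TMM scaling. The fibroblast label was borne out by Pdgfra, a receptor of fibroblasts, at 2100, 1829, 2069 and 2148 CPM in the naive and 1422, 1581, 2015 and 2033 CPM in the Fas-/- libraries. Ptprc, which encodes CD45, was at 0.239 CPM or less in naive and at 0.261 CPM or less in Fas-/- libraries. Pecam1, which encodes CD31, was at 18.4, 54.2, 26.7 and 23.6 CPM in the naive and 9.29, 465, 61.2 and 43.2 CPM in the Fas-/- libraries, so Fas-/- replicate 2 stood apart. The same library held the most RNA of all 24 blood endothelial markers within its group, whose summed level was 419.7, 932, 539 and 507 CPM in the naive and 335, 5077, 922 and 676 CPM in the Fas-/- libraries. List counts that this library moved by over 1.5 times are therefore given without it as well. In bulk samples fewer cells of a type and less RNA per cell cannot be told apart.

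Of 15773 genes tested, 578 (3.66%) were higher and 444 (2.81%) were lower in Fas-/- than in naive mice at an adjusted p of 0.05 or less, hereafter called higher and called lower, 6.48% in all. At a raw p, that is before adjustment, up to 0.05 there were 1790 higher and 1523 lower. The groups did not overlap for 2545 genes (16.1%), 1311 higher and 1234 lower, and these include 912 of the 1022 called. Genes called higher had a median log2 fold change of 1.18 and genes called lower one of -0.59, beside 0.01 over all genes tested. A log2 fold change beyond 1 or -1 was reached by 324 of the genes called higher and 105 of those called lower. Of the called genes, 408 stayed called in each of the 8 fits that left out 1 library, 232 higher and 176 lower. The count of genes called higher fell to 318 without Fas-/- replicate 2, 323 without naive replicate 3, 340 without naive replicate 1, 361 without naive replicate 2 and 377 without Fas-/- replicate 4, and that of genes called lower to 232 without naive replicate 3, 241 without Fas-/- replicates 2 or 4 and 288 without naive replicate 2. The genes described below are shown by role, and the share of each gene list that was called is given beside 3.66% higher and 2.81% lower. The lists were chosen with earlier results of these data known, so shares above these are a description without independent weight.

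**Figure D1:**
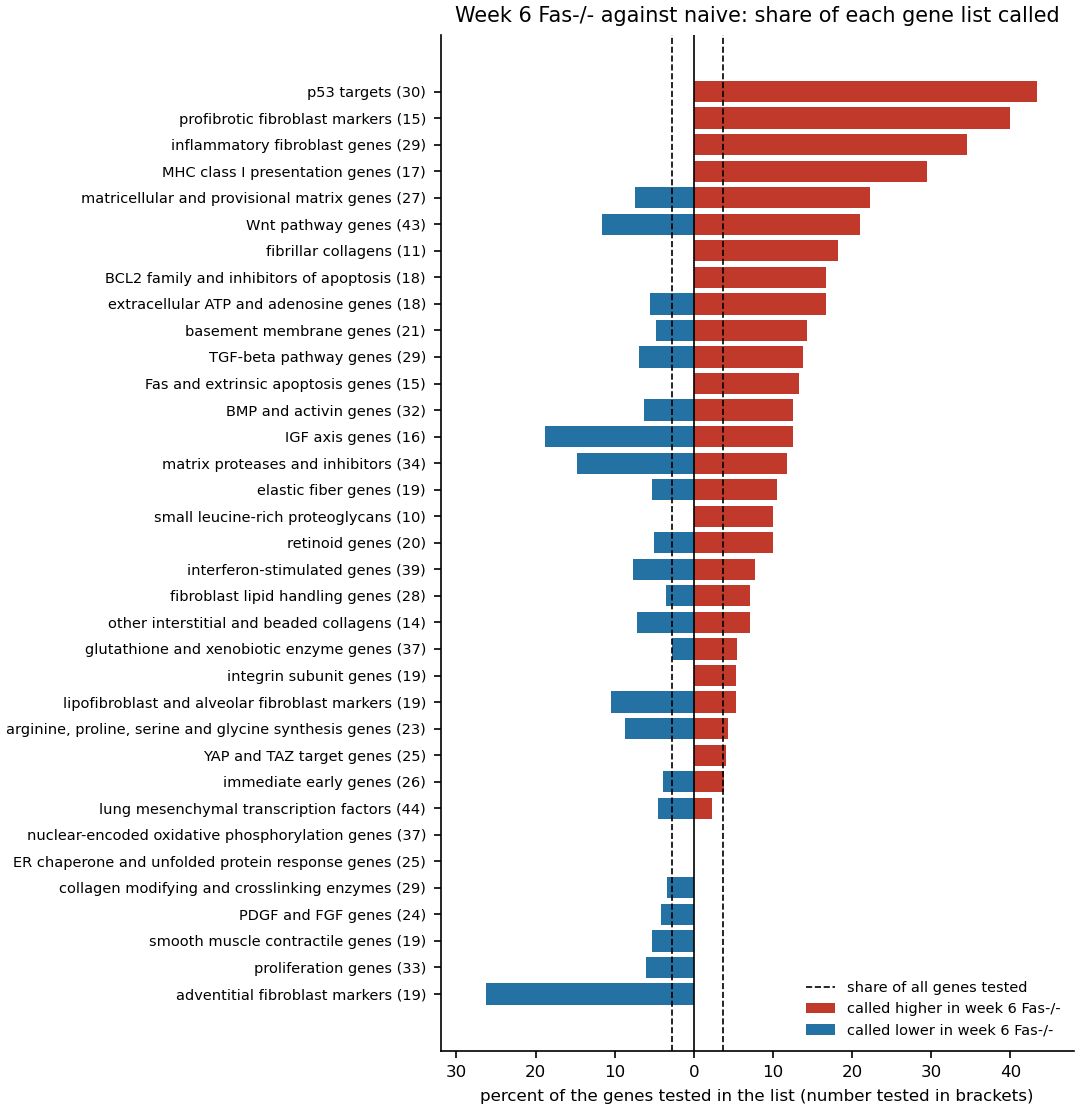
Percent of the genes tested in each of 35 gene lists that were called higher (red, right) or lower (blue, left) in week 6 Fas-/- than in naive mice, with the number tested in brackets; dashed lines mark 3.66% and 2.81%, the shares of all 15773 genes. The p53 target list as fixed, which includes Cdkn2a and Cdkn2b, the profibrotic markers and the inflammatory genes lie farthest right, and adventitial markers farthest left. The lists were chosen with earlier results of these data known.

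RNA of other cell types also moved with the groups. The 22 alveolar epithelial markers summed to 218 to 292 CPM in naive and 304 to 677 CPM in Fas-/- libraries, and all 22 had a positive log2 fold change. By edgeR 4 were called higher and none lower, with 17 higher and 0 lower at a raw p up to 0.05. DESeq2 called 9 higher and 0 lower. The edgeR count was 1 without Fas-/- replicate 2 or naive replicate 1. Ager, a marker of type I cells, was at 80.03, 20.1, 99.05 and 40.5 CPM (naive) and 77.5, 266, 321 and 133 CPM (Fas-/-), and the keratin gene Krt8 at 7.54, 13.5, 8.55 and 12.1 CPM (naive) and 14.2, 26.6, 25.9 and 22.9 CPM (Fas-/-); Cldn4 had no count in any naive library. Of the 20 pan-leukocyte and macrophage markers tested, 1 was called higher (0 without Fas-/- replicate 2), and their sum ran over 28.1 to 40.2 CPM against 49.3 to 264 CPM, with Marco at 0 in all 8 libraries. Mrc1, the macrophage mannose receptor, was at 0.129, 0.1997, 0.286 and 0.2597 CPM (naive) and 0.574, 4.76, 1.13 and 0.492 CPM (Fas-/-; log2 fold change 2.97, SE 0.853, adjusted p = 0.0456), and its call was lost without naive replicate 1 (adjusted p = 0.112), naive replicate 2 (adjusted p = 0.104), naive replicate 3 (adjusted p = 0.0947), naive replicate 4 (adjusted p = 0.0897), Fas-/- replicate 2 (adjusted p = 0.299) or Fas-/- replicate 3 (adjusted p = 0.0549). Cd74, the invariant chain of MHC class II, was at 10.2, 8.15, 4.92 and 12.9 CPM (naive) and 15.8, 120.5, 24.4 and 29.2 CPM (Fas-/-; adjusted p = 0.063). The 13 erythroid genes tested went the other way, with 11 called lower. Their sum was 3546, 3100, 9799 and 4437 CPM in naive and 144, 238, 106 and 102 CPM in Fas-/- libraries, and it was at 209 to 431 CPM in Fas+/+ mice at the same week. Hbb-bs, a beta globin gene with close paralogs, was at 1739, 1480, 4946 and 2168 CPM (naive) and 30.2, 21.3, 11.5 and 11.5 CPM (Fas-/-). Of 10 lymphatic endothelial markers 3 were called higher (0 without Fas-/- replicate 2, 1 without naive replicate 3 and 5 without Fas-/- replicate 1; edgeR, with 8 at a raw p up to 0.05 in all libraries and 6 called by DESeq2). None of the 24 blood endothelial markers was called by edgeR, with 12 at a raw p up to 0.05 and 1 called by DESeq2, at a median log2 fold change of 1.78 that was 0.29 without Fas-/- replicate 2. No pericyte, mesothelial, neutrophil, platelet or Schwann cell marker was called by edgeR, with 2, 1, 0, 1 and 0 of them at a raw p up to 0.05 and 2, 0, 0, 1 and 0 called by DESeq2. Of 6 airway epithelial markers tested 1 was called lower, and of 4 lymphocyte markers 1 was called higher, namely Jchain, a gene of antibody-secreting cells, at 2.8, 0.1198, 2.101 and 1.47 CPM in naive and 9.398, 6.56, 7.28 and 14.1 CPM in Fas-/- libraries. Its call was lost without naive replicate 4 (adjusted p = 0.0514) or Fas-/- replicate 4 (adjusted p = 0.0571). The part of this RNA in the results below was not tested beyond the fits given.

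**Figure D2:**
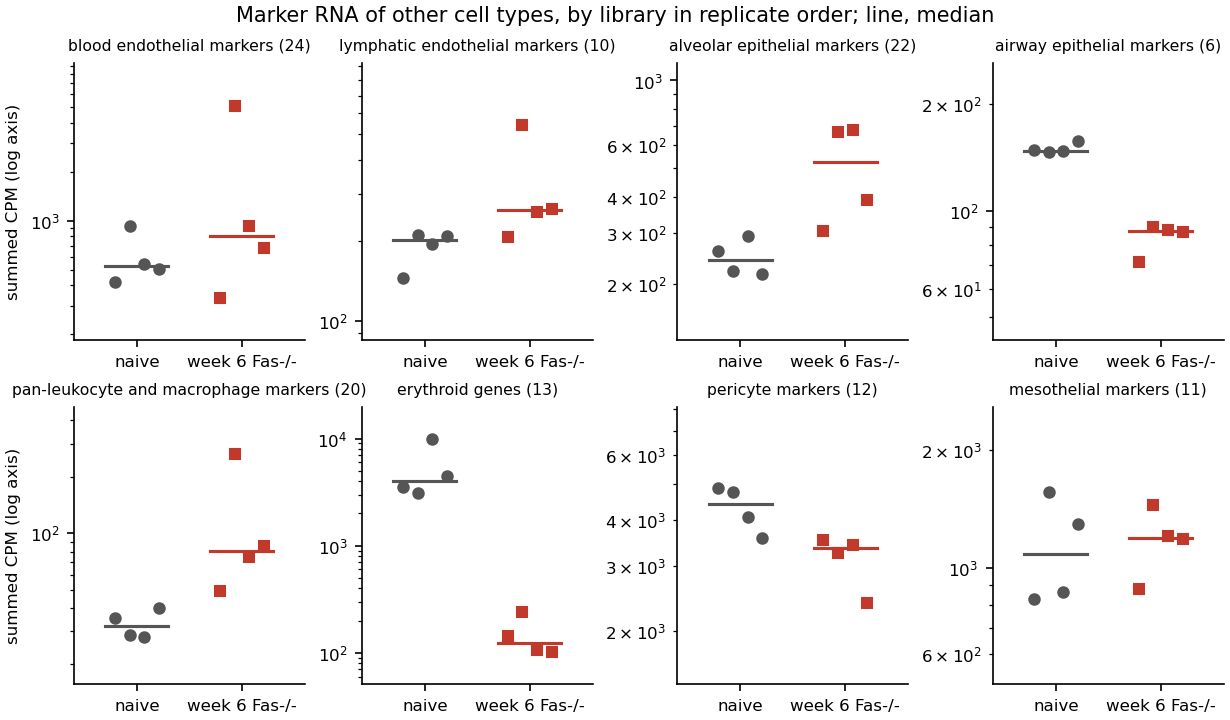
Summed CPM (log axis) of the markers of 8 other cell types in the 4 naive and the 4 week 6 Fas-/- libraries, in replicate order; each point is a library, the line is the median, and the number of markers tested is in brackets. Fas-/- replicate 2 stands at 5077 CPM of blood endothelial markers, and the erythroid sums of the groups do not overlap.

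These markers were also put into the fit. With the mean level of the alveolar epithelial markers in the fit, 231 genes were called higher and 86 lower, and 269 of the 1022 remained. With the erythroid genes in the fit, 1 gene was called higher and 0 lower by edgeR (564 and 255 at a raw p up to 0.05), but the erythroid level and the group cannot be told apart, since naive libraries did not overlap with any other group. With the epithelial markers in the fit, 4 of 15 profibrotic, 4 of 29 inflammatory, 0 of 17 MHC class I and 9 of 30 p53 target genes were called higher, and 1 of 19 adventitial markers lower, beside 6, 10, 5, 13 and 5 without them. Group and epithelial level move together, so the part of each was not told apart by this fit.

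Fas itself rose in the bulk libraries of Fas-/- mice when counted over the whole gene (chromosome 19, 34290666 to 34327772, plus strand, GRCm38). It was at 23.9, 21.1, 21.9 and 21.4 CPM in the naive and at 35.6, 46.6, 39.1 and 40.3 CPM in the Fas-/- libraries (log2 fold change 0.87, SE 0.198, adjusted p = 0.014). Each Fas-/- library was above each naive library, and the Fas+/+ libraries at the same week, at 26.1, 32.7, 39.7 and 27.1 CPM, had a lower mean and overlapped with the Fas-/- ones (adjusted p = 0.719 for the difference). The count does not separate the floxed exon from the rest of the transcript and thus does not check the deletion. Of 15 genes of Fas and extrinsic apoptosis tested, 2 were called higher and none lower by edgeR (2 lower at a raw p up to 0.05; 1 lower by DESeq2), and the median log2 fold change was 0.20. Besides Fas this was Bid, which links death receptors to mitochondria, at 1.25, 1.96, 1.43 and 1.43 CPM in naive and 3.71, 3.84, 2.597 and 4.47 CPM in Fas-/- libraries (log2 fold change 1.26, SE 0.244, adjusted p = 0.00499). Exons of Bid overlap with Bcl2l13 on the opposite strand (33.6 and 36.2 CPM), and as the strand setting of the counting is not stated, their reads cannot be told apart.

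Among 18 genes of the BCL2 family and inhibitors of apoptosis, 3 were called higher and 0 lower by edgeR (4 lower at a raw p up to 0.05; 3 lower by DESeq2), but 0 without naive replicates 3 or 4 or Fas-/- replicate 2 and 1 without naive replicate 2. Bax, a pore-forming effector of mitochondrial apoptosis, was at 28.7, 25.1, 26.3 and 25.3 CPM in naive and 32.8, 34.2, 32.6 and 31.6 CPM in Fas-/- libraries, a small but non-overlapping change (log2 fold change 0.32, SE 0.0791, adjusted p = 0.0229). Its call was lost without naive replicate 2 (adjusted p = 0.0658), naive replicate 3 (adjusted p = 0.0585), naive replicate 4 (adjusted p = 0.0627) or Fas-/- replicate 2 (adjusted p = 0.1). Bbc3, which encodes the BH3-only protein PUMA, was at 6.33, 7.71, 4.58 and 5.11 CPM (naive) and 12.2, 13.5, 8.97 and 8.46 CPM (Fas-/-) (log2 fold change 0.86, SE 0.208, adjusted p = 0.0201), and its call was lost without naive replicate 3 (adjusted p = 0.0706), naive replicate 4 (adjusted p = 0.0599) or Fas-/- replicate 2 (adjusted p = 0.0691).

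Part of the markers of profibrotic fibroblasts stayed above naive levels. Of 15 tested, 6 were called higher and 0 lower by edgeR, also with DESeq2 and with no marker lower at a raw p up to 0.05, and their median log2 fold change was 1.03. Cthrc1, a secreted collagen triple helix repeat protein that marks scar-forming fibroblasts, was at 0.388, 0.519, 0.286 and 0.736 CPM in the naive and 18.1, 15.5, 7.85 and 11.4 CPM in the Fas-/- libraries, 26.9-fold in the fit, as are all folds below (log2 fold change 4.75, SE 0.741, adjusted p = 0.00122). Every Fas-/- library was far above every naive library. Grem1, an antagonist of BMPs, was at 0.258, 1.52, 0.764 and 1.77 CPM (naive) and 45.1, 22.9, 19.4 and 21.5 CPM (Fas-/-) (log2 fold change 4.64, SE 0.902, adjusted p = 0.00531), highest in Fas-/- replicate 1. Ltbp2, a latent TGF-beta binding protein of elastic fibers, was at 883, 1192, 914 and 958 CPM (naive) and 4939, 3143, 2646 and 3006 CPM (Fas-/-) (log2 fold change 1.80, SE 0.342, adjusted p = 0.00463). Exons of Ltbp2 overlap with D030025P21Rik on the opposite strand (4.04 and 9.47 CPM).

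Tenascin C (Tnc), a matricellular protein of injured tissue, was at 128, 173, 127 and 181 CPM in naive and 969, 620.5, 507 and 656 CPM in Fas-/- libraries. The groups were far apart, but its call (log2 fold change 2.18, SE 0.573, adjusted p = 0.0303) was kept only without Fas-/- replicate 3, with an adjusted p of 0.0561 to 0.0887 in the 7 other fits that left out a library. Runx1, a transcription factor, rose from 17.5 ± 1.73 to 65.2 ± 19.3 CPM (mean ± SD, n = 4, as in all such pairs below; log2 fold change 1.89, SE 0.461, adjusted p = 0.0203). Sfrp1, a secreted Wnt inhibitor, rose from 93.2 ± 16.99 to 284 ± 63.8 CPM (log2 fold change 1.61, SE 0.392, adjusted p = 0.0204). Runx1 lost its call without naive replicate 1 (adjusted p = 0.054), naive replicate 3 (adjusted p = 0.0659) or Fas-/- replicate 1 (adjusted p = 0.052), and Sfrp1 without naive replicate 1 (adjusted p = 0.0667) or naive replicate 2 (adjusted p = 0.0541). The count of profibrotic markers called higher was 5 without Fas-/- replicate 2 and 3 without naive replicate 1, and 3 of the 6, Cthrc1, Grem1 and Ltbp2, stayed called in all 8 such fits.

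The type I and III collagen genes, elastin and fibronectin did not pass the test. Col1a1, the main chain of type I collagen, was at 3647, 7387, 5413 and 7229 CPM in naive and 8034, 5621, 4790 and 6800 CPM in Fas-/- libraries, and the groups overlapped (log2 fold change 0.09, SE 0.379, adjusted p = 0.928; p = 0.743 in a two-sided exact permutation test). Its sign turned without naive replicate 1 (-0.093) and without Fas-/- replicate 1 (-0.045). Col1a2 (log2 fold change 0.06, SE 0.3102, adjusted p = 0.946) and Col3a1 (log2 fold change 0.14, SE 0.294, adjusted p = 0.843) overlapped too, with the same turn of sign without either library (-0.089 and -0.053 for Col1a2, and -0.023 and -0.0008 for Col3a1). Eln, the elastin gene, was at 2286, 4617, 3409 and 4547 CPM (naive) and 8556, 5474, 4247 and 5771 CPM (Fas-/-) (adjusted p = 0.144). Fn1, which encodes fibronectin, did not overlap between the groups, at 5872, 5816, 5915 and 6725 CPM (naive) and 12430, 9033, 8274 and 10280 CPM (Fas-/-), yet its test missed the threshold (log2 fold change 0.72, SE 0.337, adjusted p = 0.232). These p-values do not show that the levels were alike.

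The collagens called higher were minor ones. Of 11 fibrillar collagens tested 2 were called higher and 0 lower, in each of the fits that left out a library, with a median log2 fold change of 0.14; no fibrillar collagen was lower at a raw p up to 0.05 or with DESeq2. Col11a1, a chain of the type XI collagen of cartilage, was at 0.301, 0.759, 0.334 and 1.12 CPM in naive and 25.6, 17.6, 6.55 and 24.3 CPM in Fas-/- libraries (log2 fold change 4.85, SE 0.878, adjusted p = 0.00328), with the lowest Fas-/- value in replicate 3. Col24a1, a minor fibrillar collagen, was at 2.46, 3.71, 1.53 and 3.81 CPM (naive) and 33.9, 15.3, 14.9 and 20.9 CPM (Fas-/-) (log2 fold change 2.88, SE 0.5298, adjusted p = 0.00374). Among 14 other interstitial and beaded collagens, 1 was called higher and 1 lower (6 and 2 at a raw p up to 0.05, 3 and 1 by DESeq2). Without overlap 6 were higher and 1 lower, beside 16.1% of all genes in either direction, so a missed threshold does not show an unchanged level. Col28a1, a beaded filament collagen, was at 11.5, 13.4, 9.46 and 16.1 CPM (naive) and 132, 78.9, 78.5 and 135 CPM (Fas-/-) and thus 8.39-fold higher (log2 fold change 3.07, SE 0.415, adjusted p = 0.000371), whereas Col14a1, a collagen of adventitial fibroblasts, fell from 828 ± 136 to 546 ± 64.8 CPM (log2 fold change -0.60, SE 0.134, adjusted p = 0.0124), a call lost without Fas-/- replicate 2 (adjusted p = 0.0559).

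Of 27 matricellular and provisional matrix genes, 6 were called higher and 2 lower, with a median of 0.27; the counts higher were 3 without naive replicates 1, 2 or 3 or Fas-/- replicates 1, 2 or 4, and the counts lower 1 without naive replicates 2, 3 or 4 or Fas-/- replicates 1 or 2. Tnn, which encodes tenascin N, was at 0.517, 1.16, 1.15 and 0.909 CPM in naive and 10.4, 5.99, 5.98 and 8.02 CPM in Fas-/- libraries (log2 fold change 3.02, SE 0.642, adjusted p = 0.00915). Tgfbi, a TGF-beta-induced adhesion protein, went the other way, at 124, 233, 189 and 208 CPM (naive) and 72.3, 81.7, 96.5 and 98.7 CPM (Fas-/-), with no overlap (log2 fold change -1.11, SE 0.2104, adjusted p = 0.00463). Both stayed called in all 8 fits that left out a library. Of 34 matrix proteases and inhibitors 4 were called higher and 5 lower (higher, 1 without naive replicate 1 and 2 without naive replicate 3 or Fas-/- replicate 1; lower, 1 without Fas-/- replicate 2, 2 without naive replicates 3 or 4 and 3 without naive replicate 2 or Fas-/- replicates 1 or 4). Mmp2, the gelatinase A gene, rose from 1180 ± 202 to 2214 ± 368 CPM (log2 fold change 0.91, SE 0.208, adjusted p = 0.0142; call lost without naive replicate 1 (adjusted p = 0.0599)). Plat, the tissue plasminogen activator gene, rose from 133 ± 6.65 to 205 ± 18.6 CPM (log2 fold change 0.62, SE 0.106, adjusted p = 0.00235). Adamts9, a protease of versican, fell from 193 ± 27.9 to 104 ± 17.1 CPM (log2 fold change -0.89, SE 0.183, adjusted p = 0.00757).

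Other matrix lists had few calls. Among 21 basement membrane genes 3 were called higher and 1 lower, but none stayed called in all 8 fits that left out a library, and without Fas-/- replicate 2 edgeR called 0 (in all libraries, 6 higher and 2 lower at a raw p up to 0.05; 4 and 1 by DESeq2). Of 19 elastic fiber genes 2 were called higher and 1 lower, and only Ltbp2 stayed called in all 8 such fits, with 0 lower without Fas-/- replicate 2. Of 29 collagen modifying and crosslinking enzymes 1 was called lower and none higher, and of 10 small leucine-rich proteoglycans 1 was called higher and none lower, with no call of either list in all 8 fits and 0 without Fas-/- replicate 2. No crosslinking enzyme was called higher by DESeq2 (2 at a raw p up to 0.05 in edgeR), and DESeq2 called 1 proteoglycan lower (2 at a raw p up to 0.05). The medians of these 4 lists were 0.07, -0.01, 0.11 and -0.07.

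Ligands and receptors of the TGF-beta superfamily moved in part. Of 29 TGF-beta pathway genes 4 were called higher and 2 lower, where the median log2 fold change was 0.20, and 3 stayed called in all 8 fits that left out a library. Lower calls numbered 0 without naive replicate 3 or Fas-/- replicate 1 and 1 without naive replicates 2 or 4 or Fas-/- replicates 2, 3 or 4. The ligand gene Tgfb1 was at 32.6, 37.5, 39.3 and 39.4 CPM in naive and 75.2, 74.95, 54.2 and 66.4 CPM in Fas-/- libraries (log2 fold change 0.86, SE 0.163, adjusted p = 0.00448). The receptor gene Tgfbr2 rose less, from 879 ± 26.2 to 1218 ± 108 CPM (log2 fold change 0.47, SE 0.113, adjusted p = 0.0183), and lost its call without naive replicate 1 (adjusted p = 0.0654), naive replicate 2 (adjusted p = 0.0529) or Fas-/- replicate 4 (adjusted p = 0.0551). Itgb6, an integrin subunit of epithelium that activates latent TGF-beta, was at 1.98, 0.719, 1.34 and 1.17 CPM (naive) and 5.22, 9.38, 12.02 and 4.52 CPM (Fas-/-) (log2 fold change 2.58, SE 0.384, adjusted p = 0.000778). It moved with the alveolar epithelial markers across groups, as it was highest in the Fas+/+ libraries (16.9, 38, 30.4 and 20.4 CPM), where these markers summed to 876 to 2268 CPM.

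Of 32 BMP and activin genes 4 were called higher and 2 lower, with a median of 0.13; lower calls numbered 1 without naive replicates 1 or 3 or Fas-/- replicates 2, 3 or 4. Beside Grem1, Inhbb, the beta-B subunit of activin, rose from 6.15 ± 1.97 to 17.7 ± 3.22 CPM (log2 fold change 1.52, SE 0.307, adjusted p = 0.00665). Id3, a target of BMP signaling, rose from 184 ± 17.6 to 315 ± 17.97 CPM (log2 fold change 0.78, SE 0.0825, adjusted p = 3.55e-05). Bmp7, a BMP ligand, was lower, at 21.7, 23.2, 28.8 and 23.6 CPM in naive and 13.4, 12.6, 18.2 and 13.3 CPM in Fas-/- libraries (log2 fold change -0.76, SE 0.143, adjusted p = 0.00445). Gdf6, another BMP-family ligand that was named for its small p and belongs to no list, was at 5.599, 3.12, 3.77 and 3.203 CPM in naive and 27.5, 19.6, 17.3 and 22.1 CPM in Fas-/- libraries, 5.52-fold higher (log2 fold change 2.46, SE 0.231, adjusted p = 6.88e-06).

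The Wnt pathway had calls in both directions, with 9 of 43 genes higher, 5 lower and a median of -0.05. The counts lower were 2 without Fas-/- replicates 2 or 4 and 3 without naive replicate 3, and 8 of the 14 stayed called in all 8 fits that left out a library. Secreted inhibitors were among those called higher. Dkk2, a ligand of the LRP coreceptors, was at 0.5599, 1.04, 0.4298 and 3.25 CPM in naive and 45.2, 18.1, 16.4 and 20.3 CPM in Fas-/- libraries (log2 fold change 4.23, SE 0.762, adjusted p = 0.0032). Frzb, a secreted frizzled-related protein, was at 0.646, 0.519, 0.4298 and 0.649 CPM (naive) and 17.96, 8.55, 5.14 and 10.8 CPM (Fas-/-) (log2 fold change 4.22, SE 0.739, adjusted p = 0.00268). In both, Fas-/- replicate 1 had the highest value. Nkd2, an intracellular inhibitor, rose from 23.8 ± 1.42 to 69.2 ± 17.3 CPM (log2 fold change 1.54, SE 0.191, adjusted p = 0.000182). The receptor gene Fzd8 rose from 19.5 ± 1.68 to 29.6 ± 3.22 CPM (log2 fold change 0.60, SE 0.0946, adjusted p = 0.00126). Rspo4, a secreted enhancer of Wnt signaling, fell from 8.76 ± 2.86 to 2.15 ± 0.598 CPM (log2 fold change -2.02, SE 0.318, adjusted p = 0.00126). Znrf3, the ubiquitin ligase that removes Wnt receptors, fell from 75.9 ± 3.55 to 52.7 ± 4.604 CPM (log2 fold change -0.53, SE 0.0922, adjusted p = 0.00269).

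Of 16 genes of the insulin-like growth factor axis 2 were called higher and 3 lower, and 1 stayed called in all 8 fits that left out a library. Without Fas-/- replicate 2, 1 was called in each direction. The gene that stayed, Igfbp2, which encodes a binding protein of IGFs, was at 7.32, 4.35, 9.36 and 7.32 CPM in naive and 52.9, 80.8, 79.6 and 65.3 CPM in Fas-/- libraries, 9.85-fold higher (log2 fold change 3.30, SE 0.231, adjusted p = 5.34e-07), one of the smallest adjusted p-values among genes called higher. Fas+/+ libraries were higher still at 112, 192, 145 and 120 CPM, without overlap, though the test of that difference missed the threshold (adjusted p = 0.0997). Like Itgb6, Igfbp2 moved with the alveolar epithelial markers across groups, which summed to 876 to 2268 CPM in the Fas+/+ libraries. The part of epithelial RNA in this change was not tested beyond the fits given. Igf2, a growth factor gene, fell from 48.03 ± 8.15 to 30.5 ± 6.92 CPM (log2 fold change -0.66, SE 0.149, adjusted p = 0.0137), and its call was lost without naive replicate 3 (adjusted p = 0.0568) or Fas-/- replicate 4 (adjusted p = 0.0504). Of 24 PDGF and FGF genes 1 was called lower (0 without Fas-/- replicate 2), in 2 of the 8 fits that left out a library, and none was called higher by edgeR (6 at a raw p up to 0.05; 0 by DESeq2).

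Acute-phase and chemokine genes of inflammatory fibroblasts were among the genes still high at 6 weeks. Of 29 tested 10 were called higher and 0 lower by edgeR and by DESeq2, with none lower at a raw p up to 0.05, and their median log2 fold change was 0.68. Lcn2, which encodes the iron-withholding protein lipocalin 2, was at 0.345, 0.599, 0.143 and 1.299 CPM in naive and 29.5, 13.6, 10.9 and 21.7 CPM in Fas-/- libraries, 31.1-fold higher (log2 fold change 4.96, SE 0.932, adjusted p = 0.00442). Hp, which encodes haptoglobin, the scavenger of free hemoglobin, was at 4.48, 6.47, 8.21 and 15.3 CPM (naive) and 187, 86.5, 73.3 and 145 CPM (Fas-/-) (log2 fold change 3.83, SE 0.576, adjusted p = 0.000827). Saa3, a serum amyloid A of local acute-phase responses, was at 1.59, 1.32, 2.44 and 1.91 CPM (naive) and 37.5, 20.8, 13.3 and 28.9 CPM (Fas-/-) (log2 fold change 3.80, SE 0.905, adjusted p = 0.0182), and lost its call without naive replicate 1 (adjusted p = 0.0529) or naive replicate 2 (adjusted p = 0.055). The 3 genes were low in every naive library, and in each of them Fas-/- replicate 1 was highest and replicate 3 lowest. Saa3 has close paralogs, with which its reads could be shared. The count of the list fell to 4 without naive replicates 1 or 2, 5 without naive replicate 3 or Fas-/- replicate 4 and 6 without Fas-/- replicates 2 or 3, and 4 of the 10, Lcn2, Hp, Cxcl16 and C4b, stayed called in all 8 such fits.

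The promoters of 2 genes called higher are shown because each holds a match to the element of a factor known for that response, C/EBP for acute-phase genes and p53 for arrest genes. Both are from RefSeq (GRCm38.p6), read 5′ to 3′ upstream of the start site without bases annotated as exon, and capitals mark the match.
Saa3, chr7:46715701-46715926, minus strand: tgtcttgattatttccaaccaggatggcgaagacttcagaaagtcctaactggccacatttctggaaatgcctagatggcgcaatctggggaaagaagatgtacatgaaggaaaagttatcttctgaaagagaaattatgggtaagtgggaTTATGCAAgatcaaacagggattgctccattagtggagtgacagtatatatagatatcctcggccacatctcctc
Cdkn1a, chr17:29090729-29090975, plus strand: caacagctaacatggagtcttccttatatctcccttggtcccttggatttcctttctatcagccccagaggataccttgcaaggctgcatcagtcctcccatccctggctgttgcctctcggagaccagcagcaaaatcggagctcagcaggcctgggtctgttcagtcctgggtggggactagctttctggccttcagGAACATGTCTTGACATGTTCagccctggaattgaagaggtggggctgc
The capitals in Saa3 match TTNNGCAA, searched on both strands, and begin 99 bases before the start. Those in Cdkn1a match the p53 element, a pair of adjacent decamers with at most 1 base off, and begin 51 bases before it. These distances include the bases annotated as exon that are not printed, 24 in Saa3 and 3 in Cdkn1a. Cdkn1a has a second start site in RefSeq, whose window (chr17:29093519-29093768) holds no match to the p53 element, so the window shown was the one with the match. A window of 250 bases was held for 20 of the 29 inflammatory genes tested, of which 7 matched the C/EBP letters (35.0%), and 2 of the 5 called genes with a window did (Lcn2 and Saa3), beside 9.56% of all 32851 windows. The NF-kB motif, GGGA and CC with any 4 bases between them, matched 10 of those 20 (17.6% of all windows) and the AP-1 letters TGANTCA 4 of 20 (6.75% of all windows). The p53 element matched 2 of 22 genes of the p53 target list with a window (Cdkn1a and Ccng1), beside 0.0761% of all windows. A list gene counted as matched if any of its windows held a match, whereas the shares of all windows are per window. Genes with more than 1 start site thus had more chances to match, and the shares are not like for like. No matches overlapped in the windows shown, which were chosen after values were seen, and a match is a description of letters and not a measured binding site.

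Complement and antigen presentation genes rose with smaller folds. C4b, the complement C4 gene, was at 1392, 1607, 1390 and 1542 CPM in naive and 3382, 2778, 3157 and 3436 CPM in Fas-/- libraries (log2 fold change 1.10, SE 0.161, adjusted p = 0.000647); its near-identical paralog can share its reads. Complement component C6, outside the list, was at 16.8, 13.7, 14.04 and 16.3 CPM (naive) and 66, 40.98, 50.4 and 62.1 CPM (Fas-/-) (log2 fold change 1.85, SE 0.222, adjusted p = 0.00016). C3, the central complement component, was at 3572, 4934, 3438 and 5484 CPM (naive) and 5530, 5308, 5755 and 6689 CPM (Fas-/-) and did not pass the test (adjusted p = 0.193). Cxcl16, a membrane-bound chemokine, rose from 25.04 ± 1.54 to 45.97 ± 3.91 CPM (log2 fold change 0.88, SE 0.126, adjusted p = 0.000588). Its exons overlap with Zmynd15 on the opposite strand, which was called as well (4.67 and 9.23 CPM, adjusted p = 0.0137), and their reads cannot be told apart.

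Of 17 MHC class I presentation genes 5 were called higher and 0 lower by edgeR and by DESeq2 (7 higher), with none lower at a raw p up to 0.05 and 12 of the 17 higher without overlap (beside 1311 of all 15773 genes), and the median was 0.58. These counts were 0 without naive replicate 3, 2 without naive replicates 1, 2 or 4 or Fas-/- replicates 2, 3 or 4 and 3 without Fas-/- replicate 1, and 0 of the 5 stayed called in all 8 such fits. B2m, the light chain of MHC class I, was at 486, 469.7, 420 and 539 CPM in naive and 779, 688, 669 and 722 CPM in Fas-/- libraries (log2 fold change 0.58, SE 0.1303, adjusted p = 0.0131; lost without naive replicate 3 (adjusted p = 0.0517)). Nlrc5, the transactivator of MHC class I genes, was at 3.92, 2.63, 1.34 and 3.42 CPM (naive) and 11.8, 14.8, 10.6 and 8.26 CPM (Fas-/-) (log2 fold change 2.00, SE 0.458, adjusted p = 0.0143; lost without naive replicate 3 (adjusted p = 0.0522)). H2-K1, a heavy chain whose reads could be shared with its paralogs, did not overlap but missed the threshold (adjusted p = 0.0796). Of 39 interferon-stimulated genes 3 were called higher and 3 lower, with a median of 0.19. Oas1a, an antiviral oligoadenylate synthetase with close paralogs, was at 1.46, 0.958, 0.239 and 1.43 CPM (naive) and 5.01, 3.07, 3.105 and 3.39 CPM (Fas-/-) (log2 fold change 1.82, SE 0.376, adjusted p = 0.00778). The antiviral gene Rsad2 fell from 9.28 ± 2.401 to 2.901 ± 1.59 CPM (log2 fold change -1.67, SE 0.346, adjusted p = 0.00778). Both stayed called in all 8 such fits, and without Fas-/- replicate 2 the list had 1 call in each direction.

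Targets of p53, the factor that halts the cell cycle or starts apoptosis after damage, were among the genes called higher. Of 30 tested 13 were called higher and 0 lower by edgeR and by DESeq2, with 1 lower at a raw p up to 0.05, and the median was 0.47. Without Fas-/- replicate 2 the count was 11, and 10 stayed called in all 8 fits that left out a library. The list holds Cdkn2a and Cdkn2b, cell-cycle inhibitors of the INK4/ARF locus that are not classical p53 targets, and both were called. Without them 11 of 28 were called higher and 0 lower, with a median of 0.40, and 8 stayed called in all 8 such fits. Cdkn1a, which encodes the cell-cycle inhibitor p21 and whose promoter is printed above, was at 42.4, 62.01, 55.9 and 76.05 CPM in naive and 135, 220.4, 172 and 215 CPM in Fas-/- libraries, 3.14-fold higher (log2 fold change 1.65, SE 0.163, adjusted p = 1.39e-05). Eda2r, a TNF receptor family member, was at 8.14, 9.03, 8.45 and 9.78 CPM (naive) and 22.2, 17.6, 15.3 and 21.4 CPM (Fas-/-) (log2 fold change 1.11, SE 0.179, adjusted p = 0.00144). Every Fas-/- library was above every naive one in both. Cdkn2b, the gene of the p15 inhibitor, rose from 1.96 ± 0.191 to 5.82 ± 1.61 CPM (log2 fold change 1.57, SE 0.264, adjusted p = 0.00208). Trp53inp1, Aen and Mdm2, the ubiquitin ligase of p53, rose by 0.63, 0.66 and 0.39 on the log2 scale (adjusted p = 0.000588, 0.00268 and 0.00289), and Fas and Bax, described above, are on the list too. 

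Of 33 proliferation genes 2 were called lower and 0 higher by edgeR, at a median log2 fold change of -0.67. At a raw p up to 0.05, 8 were lower and 0 higher, and DESeq2 called 5 lower and 0 higher. The edgeR count called lower was 0 without naive replicate 3 or Fas-/- replicates 3 or 4 and 1 without naive replicates 1, 2 or 4 or Fas-/- replicates 1 or 2. Cenpa, the centromeric histone gene, was at 13.96, 10.3, 11.9 and 8.14 CPM in naive and 7.52, 5.02, 6.49 and 4.67 CPM in Fas-/- libraries (log2 fold change -0.90, SE 0.253, adjusted p = 0.0416). Its call held in 2 of the 8 fits that left out a library, with an adjusted p of 0.0656 to 0.124 in the others.

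**Figure D3:**
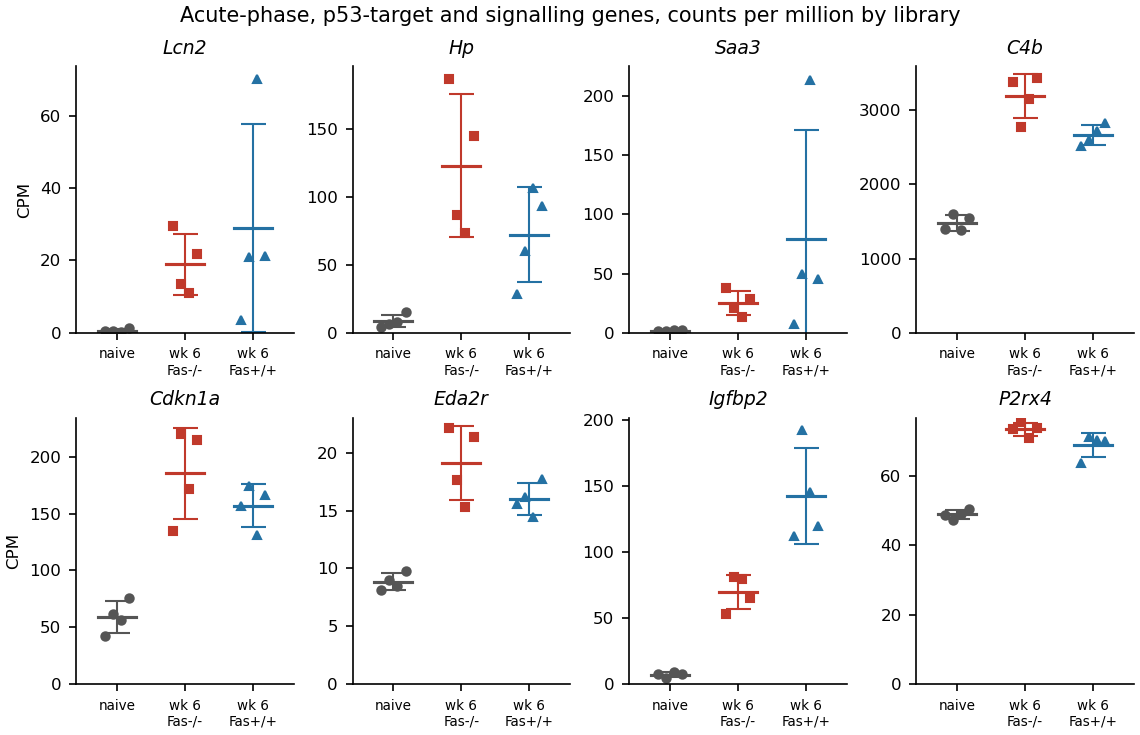
CPM of 8 acute-phase, p53-target and signalling genes in the naive, week 6 Fas-/- and week 6 Fas+/+ libraries; points are libraries, the long bar is the mean and the whiskers are 1 SD (n = 4). Each gene is higher in every Fas-/- than in every naive library, while Fas-/- and Fas+/+ libraries overlap for all 8 but Igfbp2.

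Calls among markers of resident fibroblasts were mostly lower. Of 19 adventitial markers 5 were called lower and 0 higher by edgeR (1 at a raw p up to 0.05; 1 by DESeq2), with a median of -0.09 and 3 lower without Fas-/- replicate 2. Pi16, the marker of adventitial progenitor-like fibroblasts, was at 297, 606, 477 and 713 CPM in naive and 233, 195, 241 and 294 CPM in Fas-/- libraries (log2 fold change -1.12, SE 0.197, adjusted p = 0.0027). Even the lowest naive value, in replicate 1, was above the highest Fas-/- value, in replicate 4, though narrowly. Rbp4, a carrier of retinol, was at 31.7, 43.7, 58.7 and 46.4 CPM (naive) and 16.3, 18.5, 23.8 and 25.7 CPM (Fas-/-) (log2 fold change -1.10, SE 0.222, adjusted p = 0.00665). Clec3b, which encodes tetranectin, was at 525, 709, 689.9 and 737 CPM (naive) and 384, 372, 410.5 and 482 CPM (Fas-/-) (log2 fold change -0.69, SE 0.157, adjusted p = 0.0139).

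Of 19 lipofibroblast and alveolar fibroblast markers 1 was called higher and 2 lower, with a median of -0.26 and 8 lower without overlap (beside 1234 of all 15773 genes). The count called lower was 0 without naive replicate 3 or Fas-/- replicates 2 or 4 and 1 without naive replicates 1, 2 or 4 or Fas-/- replicate 1. The gene called higher was Lpl, lipoprotein lipase, which releases fatty acids from circulating lipid. It was at 55.2, 77.7, 62.5 and 106 CPM in naive and 338, 209, 177 and 244 CPM in Fas-/- libraries (log2 fold change 1.69, SE 0.279, adjusted p = 0.00181). Slc7a10, an amino acid transporter, was at 322, 254, 286 and 286 CPM (naive) and 82.9, 109, 148 and 95.2 CPM (Fas-/-) without overlap (log2 fold change -1.40, SE 0.369, adjusted p = 0.0307), but stayed called only without Fas-/- replicate 3, with an adjusted p of 0.0504 to 0.0862 in the 7 other fits that left out a library. Of the 19 genes on the smooth muscle contractile list 1 was called lower and 0 higher by edgeR, with a median of -0.56 and 3 lower without Fas-/- replicate 3. At a raw p up to 0.05, 13 were lower and 0 higher, and DESeq2 called 8 lower and 0 higher. The gene called by edgeR was Hhip, an inhibitor of hedgehog signaling in airway and ductal muscle and not itself a contractile protein. It was at 314, 555, 481 and 569.5 CPM (naive) and 257, 239, 265 and 246 CPM (Fas-/-) (log2 fold change -0.93, SE 0.179, adjusted p = 0.00494). Acta2, smooth muscle actin, at 1202, 2079, 1674 and 1617 CPM (naive) and 982, 963, 1364 and 1081 CPM (Fas-/-), and Myh11, its myosin, at 1060, 1648, 1238 and 1212 CPM (naive) and 810, 706, 1025 and 708 CPM (Fas-/-), did not pass the test (adjusted p = 0.162 and 0.0834; p = 0.0571 and 0.0286 in two-sided exact permutation tests, where 0.0286 is the smallest that 4 against 4 libraries can give). Fas-/- libraries also held less pericyte marker RNA, with sums of 3566 to 4894 CPM in naive and 2373 to 3528 CPM in Fas-/- libraries.

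Several genes of extracellular nucleotide and amino acid metabolism changed with little spread. Of 18 extracellular ATP and adenosine genes 3 were called higher and 1 lower. P2rx4, an ATP-gated ion channel, was at 48.5, 47.3, 49 and 50.5 CPM in naive and 73.5, 75.4, 70.8 and 73.8 CPM in Fas-/- libraries, a change of 1.502-fold with an SE of 0.0533 on the log2 scale (adjusted p = 4.89e-06). Nt5e, the ectonucleotidase CD73 that makes adenosine, rose from 5.45 ± 0.358 to 16.1 ± 3.8 CPM (log2 fold change 1.56, SE 0.197, adjusted p = 0.000204). Enpp3, an ectonucleotide pyrophosphatase, fell from 23.1 ± 3.33 to 10.9 ± 2.24 CPM (log2 fold change -1.08, SE 0.191, adjusted p = 0.00284). Of 23 genes of arginine, proline, serine and glycine synthesis 1 was called higher and 2 lower (1 lower without Fas-/- replicate 2). Ass1, the argininosuccinate synthase gene, was at 5.08, 4.75, 6.11 and 5.41 CPM (naive) and 15.9, 17.3, 15.3 and 14.2 CPM (Fas-/-) (log2 fold change 1.55, SE 0.194, adjusted p = 0.000198). Slc1a5, a glutamine transporter, fell from 299.6 ± 31.5 to 198 ± 25.6 CPM (log2 fold change -0.60, SE 0.125, adjusted p = 0.00806).

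Among 20 retinoid genes 2 were called higher (1 without Fas-/- replicate 2) and 1 lower. Cyp26b1, which degrades retinoic acid, rose from 4.03 ± 1.23 to 11.8 ± 2.27 CPM (log2 fold change 1.55, SE 0.234, adjusted p = 0.000884). Of 37 glutathione and xenobiotic enzymes 2 were called higher and 1 lower. Epoxide hydrolase (Ephx1) rose from 141 ± 6.66 to 221 ± 13.4 CPM (log2 fold change 0.65, SE 0.147, adjusted p = 0.0131). Aldehyde oxidase (Aox1) fell from 112 ± 7.47 to 75.5 ± 8.95 CPM (log2 fold change -0.57, SE 0.108, adjusted p = 0.00448). Of 28 lipid handling genes 2 were called higher (1 without Fas-/- replicate 2) and 1 lower, of 25 YAP and TAZ targets 1 higher (Nt5e) and of 19 integrin subunits 1 higher (Itgb6). Of 44 lung mesenchymal transcription factors 1 was called higher (Runx1) and 2 lower, Twist2 and Osr1 (log2 fold change -0.90 and -0.51, adjusted p = 0.0114 and 0.0129); the counts were 0 higher without naive replicates 1 or 3 or Fas-/- replicate 1, and 4 lower without Fas-/- replicate 1. Of 26 immediate early genes 1 was called higher (0 without Fas-/- replicate 2) and 1 lower, the latter being the nuclear receptor Nr4a2, at 46.9, 60.2, 87.7 and 47.2 CPM in naive and 23.3, 19.3, 24.4 and 23.9 CPM in Fas-/- libraries (log2 fold change -1.41, SE 0.2398, adjusted p = 0.00227). None of 37 nuclear-encoded oxidative phosphorylation genes was called by edgeR (1 higher and 1 lower at a raw p up to 0.05; 0 by DESeq2), and none of 25 ER chaperone and unfolded protein response genes (3 higher and 2 lower; 1 and 2 by DESeq2).

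Outside the lists, the genes with the smallest p-values or the largest folds included channels, an imprinted gene and a transcription factor. Piezo2, a mechanically gated ion channel, was at 11.1, 16.1, 10.8 and 15.02 CPM in naive and 97.95, 102, 54.6 and 73.1 CPM in Fas-/- libraries, 6.17-fold higher (log2 fold change 2.63, SE 0.291, adjusted p = 5.89e-05). Nnat, the imprinted neuronatin gene, was at 3.403, 3.55, 2.67 and 3.33 CPM (naive) and 73.3, 44.98, 27.3 and 40.03 CPM (Fas-/-) (log2 fold change 3.83, SE 0.397, adjusted p = 2.61e-05). Tfap2a, which encodes the transcription factor AP-2 alpha, was at 0.301, 0.2396, 0.0955 and 0 CPM (naive) and 16.7, 6.61, 4.68 and 6.59 CPM (Fas-/-) (log2 fold change 5.68, SE 0.837, adjusted p = 0.000694). Naive libraries held hardly any Tfap2a, and its exons overlap with Gm26688 on the opposite strand, at 0 CPM in naive and a mean of 0.601 CPM in Fas-/- libraries. Zswim6, a zinc finger gene, and Atp8b1, a phospholipid flippase, rose by 0.83 and 1.08 on the log2 scale (adjusted p = 0.000164 and 0.000179).

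Among the genes called lower, Bcan, which encodes the brain proteoglycan brevican, was at 2.41, 3.47, 2.67 and 3.98 CPM in naive and 0.209, 0.154, 0.169 and 0.147 CPM in Fas-/- libraries (log2 fold change -4.16, SE 0.508, adjusted p = 0.000173). Meg3, an imprinted noncoding RNA, was at 80.8, 109, 98 and 115 CPM (naive) and 44.9, 36.3, 42.7 and 48.5 CPM (Fas-/-) (log2 fold change -1.23, SE 0.149, adjusted p = 0.00017). Gria1, a glutamate receptor subunit, was at 187, 166, 236 and 183 CPM (naive) and 56.3, 70.2, 98.3 and 63.9 CPM (Fas-/-) (log2 fold change -1.42, SE 0.306, adjusted p = 0.0101). All 4 Fas-/- libraries were below all naive libraries in these genes. Iyd, Prkg2 (a cGMP-dependent kinase), Arhgap21, Lrrc17, Ank2, Cdh4, Dusp10 (a MAP kinase phosphatase) and Plagl1 (an imprinted zinc finger gene) fell with an adjusted p from 0.0002 to 0.000663 and log2 fold changes from -1.81 to -0.70. Slc38a4, Zim1, Ank1, Mylk4 and Dner were named for the size of their change, with log2 fold changes from -2.03 to -1.61 (adjusted p from 0.00126 to 0.00356). Exons of Lrrc17 overlap with Fbxl13 on the opposite strand (4.24 and 2.87 CPM), and Ank1 is also a gene of red cells, whose RNA was lower in Fas-/- libraries.

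Beside the Fas+/+ mice at the same week, few genes were called by edgeR, though 618 were higher and 655 lower in Fas-/- mice at a raw p up to 0.05. Few calls do not show that the levels were alike. The test of Fas-/- against Fas+/+ mice at 6 weeks called 8 genes (0.0507%; 4 higher, 4 lower), of which Zswim6 is named above (28.6, 37.96, 33.8 and 38.5 CPM in Fas-/-, 22.6, 25.2, 22.5 and 22.5 CPM in Fas+/+ and 22.2, 21.6, 17.2 and 16.8 CPM in naive libraries; log2 fold change 0.58, SE 0.1, adjusted p = 0.0371). That count was 2 without Fas-/- replicate 1, 5 without replicate 2, 0 without replicates 3 or 4, 20 without Fas+/+ replicate 1 and 0 without Fas+/+ replicates 2 or 3 (896 to 1225 genes at a raw p up to 0.05 where it was 0, and 172 called by DESeq2 in all libraries). Cthrc1, Grem1 and Col11a1 had lower bulk means in Fas+/+ mice without a call. Cthrc1 was at 1.57, 3.57, 1.98 and 8.16 CPM there (log2 fold change 1.80, SE 0.594, adjusted p = 0.326), Grem1 at 3.03, 4.79, 3.52 and 16.01 CPM (log2 fold change 2.00, SE 0.758, adjusted p = 0.44) and Col11a1 at 1.45, 1.55, 0.893 and 6.697 CPM (log2 fold change 2.82, SE 0.757, adjusted p = 0.188). In each of these, Fas+/+ replicate 4 was the highest of its group and overlapped with the Fas-/- range. For the 15 profibrotic markers the median change on the log2 scale was 1.03 for Fas-/- and 0.32 for Fas+/+ mice against the same naive libraries, the 29 inflammatory genes 0.68 and 0.84, and the 30 p53 targets 0.47 and 0.40; both comparisons share their controls. No gene of these 3 lists was called between Fas-/- and Fas+/+ mice by edgeR. In that test the median log2 fold changes of the 3 lists were 0.60, -0.19 and 0.06. The 11 fibrillar collagens had a median of 0.58 in it, with 0 called.

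The time points of Fas-/- mice share the week 6 libraries with the comparisons above. Against Fas-/- mice at 3 weeks, 1428 genes (9.05%) were called at 6 weeks, 709 higher and 719 lower. The count was 947 and 714 without week 3 replicates 1 and 2, and 911, 569 and 748 without week 6 replicates 1, 3 and 4. Tgfb1 fell from 3 to 6 weeks (log2 fold change -1.02, SE 0.163, adjusted p = 0.00214), as did Oas1a (log2 fold change -1.88, SE 0.344, adjusted p = 0.00417), Rsad2 (log2 fold change -2.18, SE 0.349, adjusted p = 0.0022), Ass1 (log2 fold change -1.10, SE 0.186, adjusted p = 0.00273) and Saa3 (log2 fold change -2.58, SE 0.791, adjusted p = 0.0495). Gdf6 (log2 fold change 0.96, SE 0.217, adjusted p = 0.0124) and Nnat (log2 fold change 1.25, SE 0.351, adjusted p = 0.035) rose. Cthrc1 (-1.01, adjusted p = 0.267), Cdkn1a (-0.05, adjusted p = 0.869) and Pi16 (0.17, adjusted p = 0.613) did not pass this test. Of the lists, 28 of 33 proliferation genes, 32 of 39 interferon-stimulated genes and 7 of 29 inflammatory genes were called lower at 6 than at 3 weeks, beside 4.56% of all genes. When a library was left out these counts ran from 17 to 28, from 28 to 32 and from 1 to 6. Proliferation genes were at 17 without week 3 replicate 2 or week 6 replicate 3, and inflammatory genes at 4 or fewer in each fit but that without week 3 replicate 4. RNA of some other cell types moved the same way, with 9 of 20 leukocyte and macrophage markers (sums of 238 to 779 CPM at 3 weeks), 3 of 22 alveolar epithelial and 6 of 12 platelet genes called lower. When a library was left out these counts ran from 4 to 11, from 1 to 3 and from 1 to 5, with the platelet count at 1 in most fits. Mesothelial markers went the other way, with 9 of 11 called higher and 0 lower, beside 709 of all 15773 genes higher. Their median log2 fold change was 0.96, with sums of 594 to 695 CPM at 3 weeks and 881 to 1447 CPM at 6 weeks. Of 24 blood endothelial markers 0 were called by edgeR in all libraries, but 17 were called lower without week 6 replicate 2 (median log2 fold change -3.31). Week 3 Fas-/- replicate 4 stood apart with 15690 CPM of blood endothelial markers, and without it 28 proliferation, 30 interferon-stimulated and 6 inflammatory genes were called lower.

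Single-cell libraries of the same sort, 1 per condition and each pooled from 4 mice, gave values for the same genes inside cells defined by Col1a2. Of 766 naive and 3399 week 6 Fas-/- barcodes, 603 and 2944 were kept (200 to 7500 genes, at most 20% mitochondrial UMIs). Of these, 456 (75.6%) and 2071 (70.3%) had at least 2 UMIs of Col1a2 and none of Ptprc, Pecam1 or Epcam, and are called Col1a2+ cells here. The libraries share barcodes, 286 of the 766 naive ones with the Fas-/- and 146 with the week 6 Fas+/+ library, and shared barcodes had a median of 9532 UMIs in the naive but 860 in the Fas-/- library. Sums are therefore also given over Col1a2+ cells with an unshared barcode, 257 naive and 1955 Fas-/-. Unshared barcodes had a median of 3963 UMIs in the naive and 8285 in the Fas-/- library. In the naive library this set thus leaves out barcodes that were mostly deeper. With 1 library per condition there is no test, and the 95% Poisson intervals cover counting error only.

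In Col1a2+ cells Cthrc1 was at 0.617 CPM (interval 0.127 to 1.802) in the naive and 125 CPM (121 to 129) in the Fas-/- library. Grem1 was at 0.617 and 88.2 CPM, Lcn2 at 1.44 and 265 CPM, and Hp at 2.67 and 402 CPM. Droplet libraries hold free RNA, and Hbb-bs was at 112 CPM in naive and 2.54 CPM in Fas-/- Col1a2+ cells. As a background, 165 cells of the Fas-/- library with a UMI of Pecam1 and none of Col1a2, Ptprc or Epcam (median 4234 UMIs against 11954 in Col1a2+ cells) held Cthrc1 at 22.1, Grem1 at 2.46, Lcn2 at 66.4, Hp at 13.5 and Saa3 at 8.61 CPM, below the Col1a2+ cells in each gene. The naive library had 7 such cells, too few for a background. Saa3 was at 19.9 CPM in naive and 472 CPM in Fas-/- cells, and at 40.7 and 478 CPM in cells with an unshared barcode. Cdkn1a was at 91.7 CPM (83.4 to 101) and 199 CPM (194 to 204), and higher, at 574 CPM, in the Pecam1 cells of the Fas-/- library, so free RNA cannot be told apart for this gene. Pi16 was at 272 CPM (258 to 287) and 137 CPM (133 to 142), and thus lower, as in bulk. Tfap2a had 0 UMIs in naive cells, which allows up to 0.758 CPM, and was at 15.9 CPM in Fas-/- cells.

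Of the 52 genes named here that were called higher in bulk, are not markers of another cell type and are in the single-cell files, 51 were higher in Fas-/- than in naive Col1a2+ cells, 46 with intervals apart. The exception was Itgb6, at 0.411 and 0.206 CPM with overlapping intervals, that is, hardly present in Col1a2+ cells of either library. Igfbp2 was at 24.9 CPM in naive and 91.1 CPM in Fas-/- cells over all kept cells, but at 4.52 and 24.8 CPM in Col1a2+ cells. Among the genes higher with overlapping intervals was Fas, at 54.9 CPM (48.5 to 61.9) in naive and 62.1 CPM (59.3 to 65.1) in Fas-/- Col1a2+ cells. Of the 36 genes called lower in bulk, 33 were lower in these cells, 28 with intervals apart, and 3 were higher, Bmp7, Rsad2 and Cenpa. Rsad2 (0.617 CPM in naive, 0.127 to 1.802; 10.2 CPM in Fas-/-, 9.09 to 11.4) and Cenpa (8.22 and 13.4 CPM) had intervals apart, against their bulk direction. In cells with an unshared barcode 51 of 52 and 28 of 36 kept the direction, 44 and 21 with intervals apart, and Rsad2 alone was opposite with intervals apart. The 8 genes lower in bulk but not in these cells were Col14a1 (139 and 148 CPM), Igf2, Rsad2, Cenpa, Iyd, Cdh4, Mylk4 and Twist2. No such share was taken over all genes, so these counts have no baseline. Genes not called in bulk also had intervals apart in Col1a2+ cells, such as C3 (941 CPM in naive and 1231 CPM in Fas-/-), H2-K1 (432 and 678 CPM) and, lower, Acta2 (1851 and 1494 CPM). The direction of Acta2 turned in cells with an unshared barcode, at 435 CPM (409 to 462) in naive and 1501 CPM (1487 to 1515) in Fas-/-. Myh11 turned too, from 275 and 202 CPM to 50 and 204 CPM, so the direction of both genes depended on the cells summed. Col1a1, which did not pass the test in bulk, was at 2047 CPM in naive and 4588 CPM in Fas-/- Col1a2+ cells, and Fn1 at 835 and 3114 CPM; in the week 6 Fas+/+ library, with 1418 such cells (43.8% of those kept), they were at 4819 and 3313 CPM. Lcn2 was at 128 CPM in those Fas+/+ cells. Unlike in bulk, Cthrc1 (159.8 CPM) and Col11a1 (24.8 CPM, against 10.3 CPM) were higher in the Fas+/+ than in the Fas-/- Col1a2+ cells, as were Ltbp2 (790.3 against 679 CPM), Tnc (403 against 358 CPM), Runx1 (161 against 133 CPM) and Sfrp1 (476 against 455 CPM), and Grem1 (74.6 against 88.2 CPM) was lower. Over all kept cells Ltbp2 (572 against 639 CPM), Tnc (306 against 340 CPM), Runx1 (121 against 125 CPM) and Sfrp1 (368 against 422 CPM) were instead lower in the Fas+/+ library. Col1a1 (3556 against 4175 CPM), Fn1 (2488 against 2900 CPM) and Grem1 (58.5 against 86.2 CPM) were lower there as well. Cthrc1 (118 against 111 CPM) and Col11a1 (17.7 against 8.91 CPM) were still higher there.

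**Figure D4:**
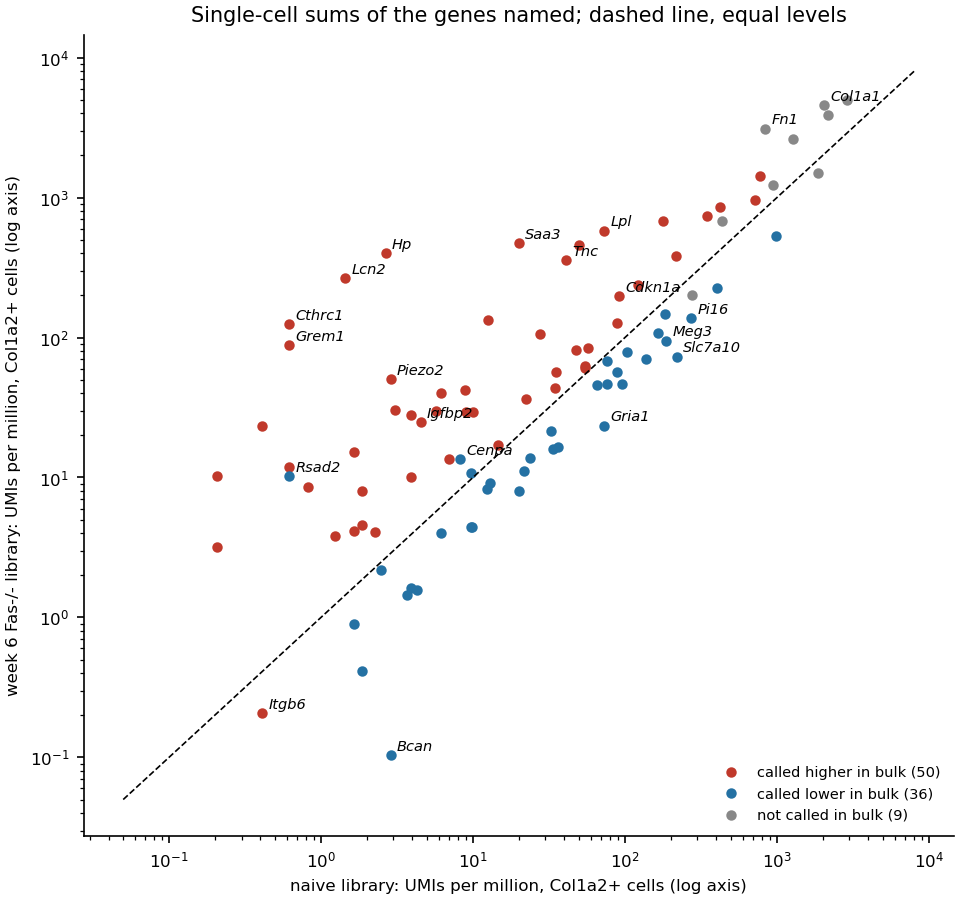
Summed UMI counts, in CPM, of 95 named genes in Col1a2+ cells of the naive library (horizontal, log axis) and the week 6 Fas-/- library (vertical, log axis), coloured by the bulk call; the dashed line marks equal levels, and 2 genes with 0 UMIs in naive cells are not drawn. Genes called higher in bulk lie above the line except Itgb6, and genes called lower lie below it except Bmp7, Rsad2 and Cenpa.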

How the data were processed

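Bulk RNA-seq libraries were made by the authors with a stranded kit from polyadenylated RNA of sorted Lin- cells, aligned with HISAT2 to GRCm38 and counted per gene with HTSeq on Ensembl annotation, and the authors used DESeq2. The strand setting of the counting is not given in the sources used here. The deposited bulk values are raw counts for 47729 gene symbols, and the deposited single-cell values are UMI counts from Cell Ranger, with doublets not called beyond the upper limit on genes per cell. A deposited table of normalized counts was not used. Counts of all 20 bulk libraries (5 groups of 4) were fitted together with edgeR 4.0.16 (limma 3.58.1, R 4.3.3), with filterByExpr (minimum count 10) and TMM factors. Fold changes came from the fit with edgeR's default prior count. A prior count of 2 was used only for log2 CPM, which served the marker covariates and the correlations between libraries. The quasi-likelihood test with Benjamini-Hochberg adjustment over 15773 genes was used, and genes were called at an adjusted p of 0.05 or less. SE is that of the log2 fold change. DESeq2 1.42.0, other scalings and filters, a replicate block, marker covariates and fits without 1 library were alternatives, and the erythroid and leukocyte covariates were chosen after seeing the data. The script was tested on simulated data. Replicates of a group differed by a chi-square per gene of 11.7 to 49.5, so none was a duplicate. Permutation tests were exact, and the Poisson intervals came from scipy 1.17.1. Figures were drawn with matplotlib 3.10.9 in Python 3.11.15.

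Members and gene lists were chosen with earlier results of these data known. Named genes are Fas, the 10 genes of smallest adjusted p and the 10 of largest fold change in each direction (groups not overlapping, 5 CPM or more in the higher group for the latter, no predicted genes, no marker of another cell type), and within each list up to 6 called members and up to 3 uncalled ones, of which 106 are printed or counted here. Same-numbered naive and Fas-/- libraries were not taken as pairs, since the labels name no pairing. Their deviations from the group means were all positively correlated, at 0.0907 to 0.228, and a fit with the replicate number as a block is given below.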

Additional observations from a re-analysis of the deposited data

Results flagged for a closer look

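The following values stood apart from the other 3 libraries of their group by the spacing of a Dixon test, which chance passes in about 1 of 20 groups; 236 groups were tested. Runx1 was at 14.9 CPM in naive replicate 3, below the rest. Fn1 was at 6725 CPM in naive replicate 4, above the rest and still below every Fas-/- library. Mdm2 was at 56.2 CPM in Fas-/- replicate 1. Iyd was at 3.53 CPM in naive replicate 1, Zim1 at 4.87 CPM in naive replicate 1 and Arhgap21 at 328 CPM in naive replicate 2. Aox1 was at 62.1 CPM in Fas-/- replicate 2, the library with the most endothelial RNA. The airway epithelial markers summed to 71.5 CPM in Fas-/- replicate 1.

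Zswim6 differed between Fas-/- and Fas+/+ mice at 6 weeks, with a log2 fold change of 0.58 (adjusted p = 0.0371, edgeR's quasi-likelihood test), and the 4 Fas-/- libraries lay above all Fas+/+ ones. It was the only named gene that passed this test.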

How the results depend on the processing

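Of the 106 named genes, all kept their direction and their side of the threshold with RLE factors, with total counts only and with the replicate block. Without a filter 1 lost its call, with the epithelial markers in the fit 37 did, with the leukocyte markers 14 and with the erythroid genes 94 of the 95 that were called. Genes higher than in naive numbered 876 with the endothelial, 231 with the epithelial, 257 with the leukocyte markers and 1 with the erythroid genes in the fit (edgeR; 564 at an unadjusted p of 0.05 or less), 324 with a log2 fold change of 1 or more, and 318 to 484 when 1 library was left out. Genes lower numbered 86, 204 and 0 with the epithelial, leukocyte and erythroid genes (255 unadjusted), 761 by DESeq2, 105 at 1 or more in size and 232 to 362 when 1 library was left out. Against Fas+/+ mice, 15 genes were called with the endothelial and 0 with the epithelial markers (902 unadjusted), 1 in a fit of the 2 groups alone, 172 by DESeq2, 3 at 1 or more in size and 0 to 20 without 1 library. Against 3 weeks, 892 were called without a filter, 652 with the epithelial markers, 376 at 1 or more in size and 569 to 1460 without 1 library. In a fit of the 2 groups alone, 661 genes were higher and 637 lower than in naive, where 1 named gene lost its call and 4 gained one. The cause of these shifts was not tested.

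With the replicate number as a block, the calls were 497 higher and 422 lower than in naive, 0 against Fas+/+ mice (1188 unadjusted, edgeR) and 1337 against 3 weeks. Correlations of same-numbered libraries were 0.0937, 0.228, 0.0907 and 0.202, all of them positive. Those of differently numbered libraries were mostly negative and ran from -0.165 to 0.155, the latter between naive replicate 1 and Fas-/- replicate 3. The labels name no pairing, so the numbers were not read as pairs, and whether same-numbered libraries share a batch was not tested.

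Signs turned for 6 named genes. Col1a1 went to -0.628 with the erythroid and -0.0341 with the leukocyte genes, and ran from -0.0927 (without naive replicate 1; -0.0450 without Fas-/- replicate 1) to 0.217 when 1 library was left out. Col1a2 went to -0.561 and -0.0382, and ran from -0.0892 (-0.0534 without Fas-/- replicate 1) to 0.153. Col3a1 went to -0.356 with the erythroid genes and ran from -0.0233 (-0.0008 without Fas-/- replicate 1) to 0.270. With the erythroid genes C3 was at -0.316, Rsad2 at 0.282 and Atp8b1 at -0.0578, the last 2 of them genes called without that term. Depth limits the genes at the lowest CPM, such as Cthrc1 or Tfap2a in naive libraries, which rest on few counts.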

Other observations

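Imprinted genes were listed after Meg3, Plagl1, Slc38a4 and Zim1 had been seen among the genes called lower, so that the counts are a description without independent weight. Of 30 listed and 25 tested, 9 were called lower and 1, Nnat, higher in week 6 Fas-/- than in naive mice, beside 2.81% and 3.66% of all genes, and the median log2 fold change was -0.23. Paternally expressed Peg3, a zinc finger gene, was at a mean of 150.3 and 66.2 CPM (log2 fold change -1.18, SE 0.235, adjusted p = 0.00601) in naive and Fas-/- libraries. Rian, a noncoding RNA of the Meg3 locus, was at 29.1 and 13.8 CPM (log2 fold change -1.07, SE 0.174, adjusted p = 0.00151). Gnas, which encodes a G protein subunit, was at 969.5 and 828 CPM (log2 fold change -0.23, SE 0.05695, adjusted p = 0.0235). H19 overlapped between the groups, at 7.68 and 2.75 CPM (log2 fold change -1.48, SE 0.6098, adjusted p = 0.166). Grb10, at 209 and 254 CPM (log2 fold change 0.28, SE 0.117, adjusted p = 0.175), and Igf2r, at 303 and 334 CPM (log2 fold change 0.14, SE 0.0698, adjusted p = 0.257), were not called, though their groups did not overlap. The groups did not overlap for 11 genes that were lower and 3 that were higher, beside 1234 and 1311 of all 15773 genes.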
